A study of Mus musculus with 6 samples.

Results

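Klf2, Klf3, Klf4, Klf6, Klf7, Klf9, Klf10 and Klf13 encode 8 Kruppel-like factors, and their transcripts were followed in mouse bone marrow-derived macrophages (BMDMs) with and without zoledronic acid (ZA). ZA is a nitrogen-containing bisphosphonate that blocks farnesyl diphosphate synthase in the mevalonate pathway and is given against bone resorption. The 8 genes were taken by symbol from the 35407 genes whose values could be read from the deposited table, because Klf2 was already known to be higher with ZA in these libraries and the others are its relatives. The comparison of ZA with Ctrl therefore chose Klf2, and the members' values in it are given as a description without a p-value.

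The groups were 3 Ctrl libraries of cells without ZA and 3 ZA libraries of cells collected 12 h after ZA was added. All came from BMDMs of C57BL/6 mice, which were cultured for 7 days with 10 ng/ml of macrophage colony-stimulating factor (M-CSF). The study obtained female C57BL/6 mice at 6 weeks of age, and the age at which marrow was taken and the ZA dose used for these libraries were not given in the sources used here. Nothing in the labels says that libraries of one group came from separate mice or cultures, so p-values measure the spread between these libraries, which may be technical. The labels name both a VAHTS kit and a SMARTER kit for library preparation and do not say which was used for which library.

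Kruppel-like factors are transcription factors that bind GC-rich and CACCC sequences through C-terminal zinc fingers. They differ in the N-terminal part, which recruits co-activators in some members and the co-repressors CtBP or SIN3 in others. In the myeloid lineage KLF2 is known for holding monocytes in a quiescent state and restraining NF-kB targets, KLF4 for monocyte differentiation and alternative activation, and KLF6 for the inflammatory response. Klf2 and Klf4 are also classical targets of the MEK5-ERK5-MEF2 route, and in endothelium Klf2 is induced by statins, drugs that act on the same mevalonate pathway as ZA.

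The libraries held between 41230600 and 42155808 fragments by the depth that the deposited values imply. The unit was FPKM, fragments scaled by gene length and library total, so a comparison of levels between genes depends on the gene lengths used. The 10 macrophage markers examined, such as Csf1r, Adgre1 and Cd68, were all present at a mean FPKM of at least 1, and their sum, most of it Lyz2, was 24000 to 27900 in Ctrl against 24900 to 28400 in ZA. Csf1r (772.2 ± 4.93 and 834.9 ± 11.9, adjusted p = 0.07), Adgre1 (531.8 ± 5.93 and 580.5 ± 13.4, adjusted p = 0.0783), Cd68 and Cd14 lay wholly above Ctrl in ZA, on the same side as Klf2, and their part in its values was not tested. The sum over 10 endothelial and stromal markers was 22.6 to 37.7 in Ctrl against 20.7 to 27.4 in ZA, with none at 0 in all libraries. That over 10 neutrophil markers was 34.7 to 50 and 31.3 to 36.4, with Ly6g at 0, and those over the T cell, B cell and erythroid lists did not pass 3.04 in any library. Among 9792 genes whose mean FPKM reached 1 or more, limma on log2(FPKM + 1) with Benjamini-Hochberg adjustment called 20 higher (0.204%) and 16 lower (0.163%) in ZA at an adjusted p under 0.05. Without any overlap between groups, 11.3% lay above and 6.76% lay below Ctrl.

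The upstream sequences of Klf2 and Klf4 are shown because the 2 genes are known targets of the MEF2 route and because their FPKM values in ZA lay above those in Ctrl. The values of Klf6 in ZA also lay above those in Ctrl, and its sequence is not shown. Each sequence shown is the 250 bases before the RefSeq start of the gene, on the gene's own strand and 5′ to 3′, in build GRCm38.p6. Klf2 lies on the plus strand (chr8:72318812-72319061) and Klf4 on the minus strand (chr4:55532476-55532725). Capitals mark the core of the MEF2 motif, CTA and TAG with any 4 bases between them, and the GC box GGGCGG, searched on both strands, so that CCGCCC is the GC box of the other strand.
Klf2: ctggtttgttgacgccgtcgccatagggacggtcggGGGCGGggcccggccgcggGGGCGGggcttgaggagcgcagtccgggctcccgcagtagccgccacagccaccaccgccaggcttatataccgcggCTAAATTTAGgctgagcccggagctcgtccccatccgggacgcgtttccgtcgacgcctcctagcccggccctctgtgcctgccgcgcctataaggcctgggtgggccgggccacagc
Klf4: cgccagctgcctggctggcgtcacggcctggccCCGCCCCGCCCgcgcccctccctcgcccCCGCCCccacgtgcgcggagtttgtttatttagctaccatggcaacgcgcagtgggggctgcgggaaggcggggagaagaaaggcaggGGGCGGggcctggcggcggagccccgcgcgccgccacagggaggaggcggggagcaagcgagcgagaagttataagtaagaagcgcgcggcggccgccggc

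The MEF2 core was found once in the Klf2 window, as CTAAATTTAG beginning 118 bases before the start, and in none of the other 6 members with a RefSeq promoter entry. It occurs in 3.2% of 32851 mouse promoter windows of this length. The GC box was found 2 times upstream of Klf2, 4 times upstream of Klf4, 6 times upstream of Klf3, 3 times upstream of Klf13, once each upstream of Klf6 and Klf7, and not upstream of Klf9. It occurs in 32.7% of all windows. CACCC, the other sequence known to be bound by the family, was found once in the Klf2 window and not in the Klf4 window, against 52% of all windows. Such matches describe letters in a window and were not tested for binding. A promoter of Klf10 was not analysed here.

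Klf2, the quiescence factor of the family, was higher in every ZA library than in any Ctrl library. Its FPKM was 6.98, 7.60 and 7.15 in Ctrl replicates 1 to 3 and 9.91, 12.2 and 11.8 in ZA replicates 1 to 3. The lowest ZA library, replicate 1, was thus above the highest Ctrl library, replicate 2. The mean rose from 7.24 ± 0.324 to 11.3 ± 1.22 (SD, n = 3), a ratio of 1.56. On the log2(FPKM + 1) scale, which understates the change of low genes, the difference was 0.57 with an SE of 0.0703 and a 95% interval of 0.41 to 0.73. These values rest on 528 to 920 fragments per library if the length of Klf2 is its 1816 exon bases of GENCODE within the RefSeq span. The deposited values also fit a shorter length that divides 1816, with proportionally fewer fragments, and the voom fit used those fewer fragments. In bulk RNA, more cells with a transcript and more of it per cell cannot be told apart.

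Klf2 was the member that the fit across all genes called higher, 1 of the 7 tested beside 0.204% of all genes, and 0 were called lower. Since Klf2 was chosen on this comparison, nothing is read from that count. At an unadjusted p under 0.05 limma also counted 1 higher and 0 lower, beside 7.5% and 4.85% of all genes. Of the members, limma's voom on the recovered fragments called Klf2 alone, beside 133 of all 9792 genes. That fit was added after seeing the data and used the same libraries, so its call of Klf2 is no separate support. The call of Klf2 was lost when Ctrl replicate 1, 2 or 3 or ZA replicate 2 or 3 was left out, and it held without ZA replicate 1. A rise of at least 1.5-fold on the log2(FPKM + 1) scale was reached by 0.0102% of all genes and by 0 members. The log2 difference of Klf2 lay between 0.52 and 0.66 in all 14 alternatives.

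**Figure D1:**
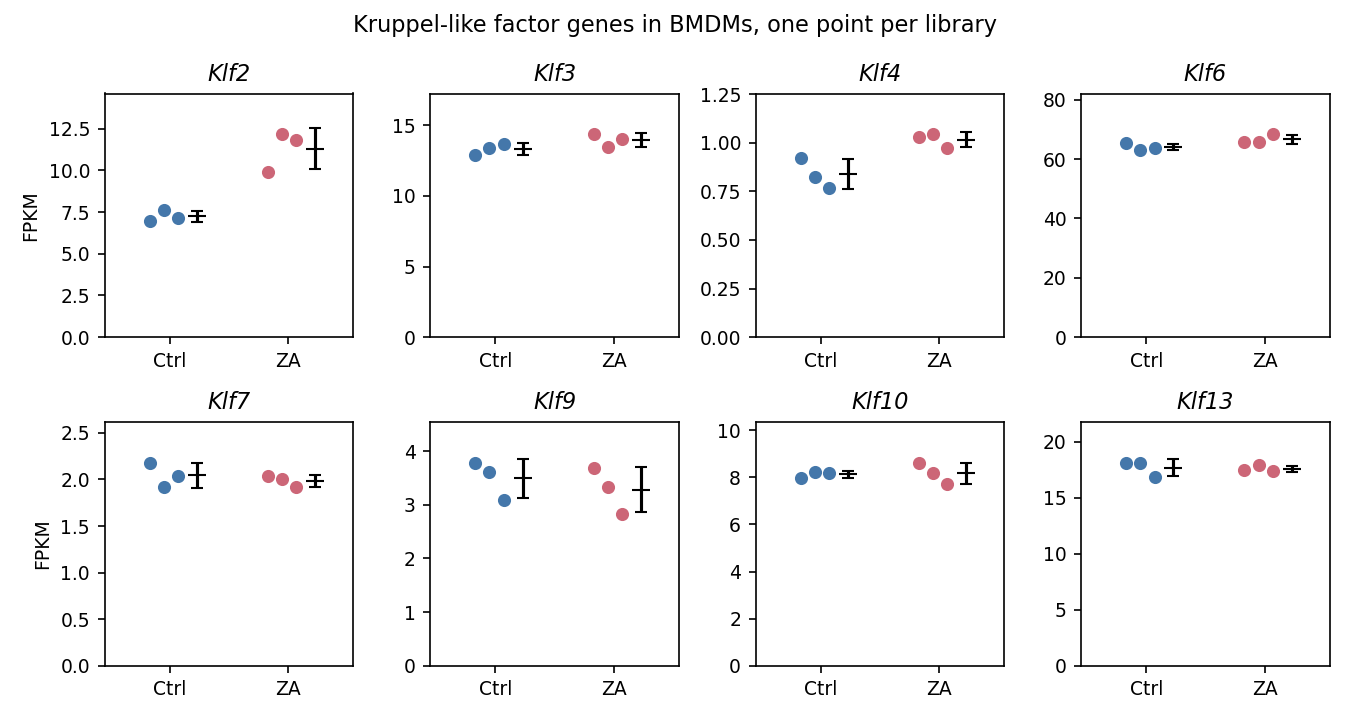
FPKM of the 8 Kruppel-like factor genes in each Ctrl (blue) and ZA (red) library, with the mean and SD of each group of 3 as black bars and each vertical axis starting at 0. Klf2 rose from 7.24 to 11.3, Klf4 and Klf6 also had all ZA libraries above all Ctrl libraries, and the groups of the other 5 genes overlapped.

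Klf4, which shares the MEF2 input with Klf2 and is tied to alternative activation, was the least abundant of the 8. Its FPKM was 0.921, 0.825 and 0.767 in Ctrl against 1.03, 1.04 and 0.971 in ZA. All 3 ZA values were above the highest Ctrl value, with means of 0.838 ± 0.078 and 1.02 ± 0.0393 and a ratio of 1.21. Its mean over the 6 libraries, 0.927, was under the minimum of 1, so it was not among the genes tested. In a fit without that minimum its log2(FPKM + 1) difference was 0.13 with an SE of 0.0433 and an interval of 0.03 to 0.24. The values held 242 to 328 fragments. The deposited values imply a gene length of 7553 bases for Klf4, against 3049 exon bases of the GENCODE annotation within its RefSeq span, so its level per length relative to the other members depends on that gene model.

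Klf6, an immediate-early member that promotes inflammatory gene expression in macrophages, was the most abundant of the 8. The Ctrl libraries had an FPKM of 65.3, 63.2 and 63.7, and the ZA libraries 65.7, 65.8 and 68.4. The groups did not overlap, but ZA replicate 1 exceeded Ctrl replicate 1 only narrowly. The means were 64.1 ± 1.07 and 66.6 ± 1.55, a ratio of 1.04, and the log2 difference was 0.06 with an interval of -0.01 to 0.12.

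Klf13 and Klf3 were next in abundance. Klf3, a repressor that works through CtBP, stood at an FPKM of 12.9, 13.4 and 13.7 in Ctrl against 14.4, 13.4 and 14.04 in ZA. The ranges overlapped, with a log2 difference of 0.06 and an interval of -0.02 to 0.14. Klf13, a SIN3-binding member known for late control of the chemokine RANTES in T cells, read 18.1, 18.1 and 16.8 in Ctrl against 17.5, 17.9 and 17.4 in ZA. All ZA values of Klf13 fell within the Ctrl range, and the log2 difference was -0.01 with an interval of -0.09 to 0.08.

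Klf10, also called TIEG1 and an early target of TGF-beta, had nearly equal means in both groups. It had an FPKM of 7.97, 8.22 and 8.18 in Ctrl against 8.63, 8.18 and 7.71 in ZA. The highest and the lowest of the 6 values were both ZA libraries, replicates 1 and 3, and the log2 difference was 0.01 with an interval of -0.09 to 0.11.

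Klf9, a target of the glucocorticoid receptor and of the circadian clock, varied most among libraries of one group. Its FPKM was 3.79, 3.61 and 3.09 in Ctrl against 3.68, 3.33 and 2.84 in ZA, and replicate 3 was the lowest in both groups. The groups overlapped, the coefficients of variation were 10.4% in Ctrl against 12.9% in ZA, and the log2 difference was -0.07 with an interval of -0.27 to 0.12.

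Klf7, a widely expressed member best known from neurons and adipose tissue, stood at an FPKM of 2.18, 1.92 and 2.03 in Ctrl and of 2.04, 2.01 and 1.92 in ZA. The lowest value was the same in both groups to 3 digits, and the log2 difference was -0.03 with an interval of -0.14 to 0.09.

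Over the 8 genes, 5 had a higher and 3 a lower mean in ZA, and in 3, namely Klf2, Klf4 and Klf6, the groups did not overlap with ZA above. Of the 7 that were tested 2 had ZA wholly above Ctrl, where the share over all genes was 11.3%. The median log2 difference of the 7 was 0.01, the same as the 0.01 of all genes tested. Apart from Klf2, no interval of the 6 other tested members lay wholly above or below 0, which does not show that they were unchanged. The sign of the difference turned under some alternatives for Klf10 (the same in 10 of 14), Klf13 (11 of 14), Klf7 and Klf9 (12 of 13 each), and in none for Klf3 and Klf6.

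The order of the levels was Klf6, Klf13, Klf3, Klf10, Klf2, Klf9, Klf7 and Klf4 in Ctrl. In ZA it was the same except that Klf2 stood above Klf10. In neither group did the libraries of any neighbours in the order overlap. The places of Klf4, Klf3 and Klf2 depend on the gene models. For Klf3 the deposited values imply 5267 bases against 11110 exon bases in GENCODE. For Klf2 they fit 1816 bases and also a shorter length that divides 1816. Another length would scale Klf2 alike in every library. Its order against Klf10 and the level of their ratio thus depend on that length, while its ratio of ZA to Ctrl does not. The closest neighbours in Ctrl were Klf10 and Klf2, with a ratio of means of 1.12 and with the lowest Klf10 library at 7.97 against the highest Klf2 library at 7.60. In ZA, Klf2 exceeded Klf10 by a ratio of means of 1.38. Within libraries, the ratio of Klf2 to Klf10 was 0.876, 0.925 and 0.874 in Ctrl against 1.15, 1.49 and 1.53 in ZA, so it passed 1 in each ZA library and in no Ctrl library.

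**Figure D2:**
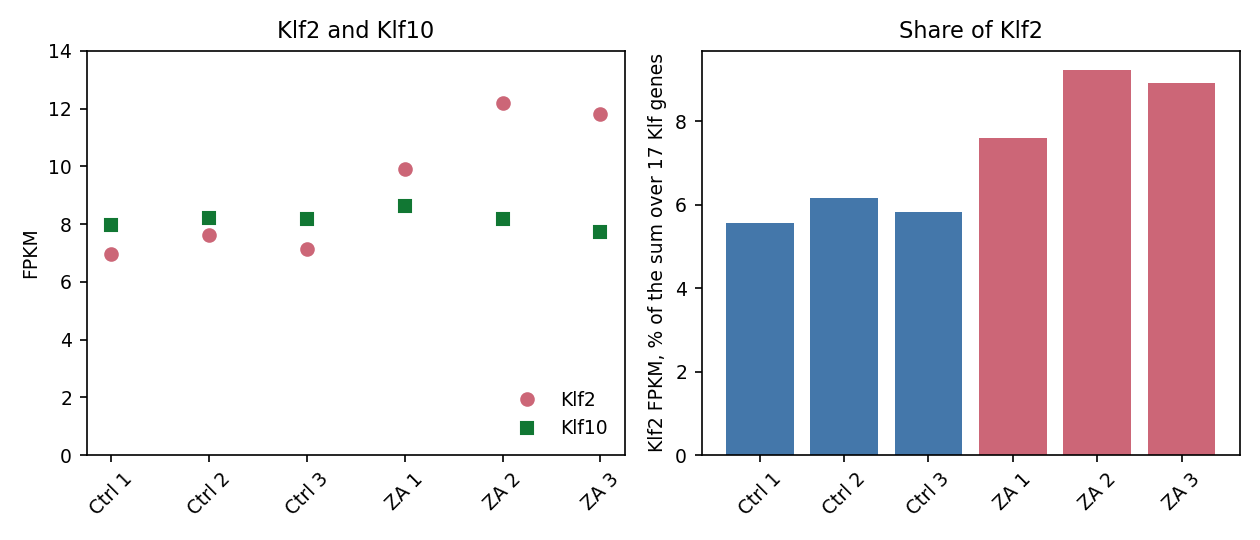
Left, FPKM of Klf2 (circles) and Klf10 (squares) in each library. Right, Klf2 as a percentage of the summed FPKM of 17 Klf genes, one bar per library. It was 5.56% to 6.15% in Ctrl against 7.59% to 9.23% in ZA. The level of Klf2 in both panels depends on the gene length used for it.

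Summed over the 17 Klf genes in the table, the family had an FPKM of 125.5, 123.7 and 122.5 in Ctrl against 130.6, 132 and 132.6 in ZA. Klf6 alone made up 51.1% to 52% of this sum in Ctrl and 49.8% to 51.6% in ZA. Klf2 contributed 5.56%, 6.15% and 5.83% in Ctrl against 7.59%, 9.23% and 8.91% in ZA. These shares depend on the gene lengths behind the deposited values, which are not settled for Klf2. With Klf2 left out, the sum was 118.5, 116.1 and 115.3 in Ctrl against 120.6, 119.8 and 120.8 in ZA, which still did not overlap. Klf6, the largest part of that remainder, was itself above Ctrl in each ZA library, as were 11.3% of all genes tested. A sum without both Klf2 and Klf6 is not given, so no rise of the rest of the family is read from this.

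Of 10 other Klf genes listed, 9 were in the table and 2 of these, Klf14 and Klf17, were listed at 0 in every library. Klf18 was not analysed here. A mean FPKM of at least 1 was reached by 2, Klf16 and Klf11, with a median log2 difference of 0.07, and limma and voom called 0 of them, with 1 higher at an unadjusted p under 0.05 by limma. Klf16, a repressor of the SIN3-binding branch, had an FPKM of 5.14, 4.92 and 5.23 in Ctrl against 5.62, 6.01 and 5.50 in ZA. Its groups did not overlap, and the log2 difference was 0.14 (SE 0.0435, adjusted p = 0.258). Klf11, a TGF-beta-inducible relative of Klf10, was at 1.43 ± 0.179 and 1.44 ± 0.0732 (adjusted p = 0.97). Klf8 was at 0.467 ± 0.0445 and 0.558 ± 0.0599, and Klf1, Klf5, Klf12 and Klf15 had means between 0.0043 and 0.043.

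The Sp factors bind the same GC boxes with closely related zinc fingers, and 4 of 9 were abundant enough to test. Limma called 0 in either direction, with 0 also at an unadjusted p under 0.05, and voom called 0. Their median log2 difference was 0.04. Sp3 (20.8 and 21.4), Sp1 (11.6 and 11.8) and Sp2 (6.32 and 6.71) had overlapping groups, with adjusted p = 0.633, 0.762 and 0.59. Sp4 was at 1.62, 1.57 and 1.66 in Ctrl against 1.48, 1.49 and 1.42 in ZA, wholly below Ctrl, with a log2 difference of -0.09 (SE 0.0463, adjusted p = 0.48).

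**Figure D3:**
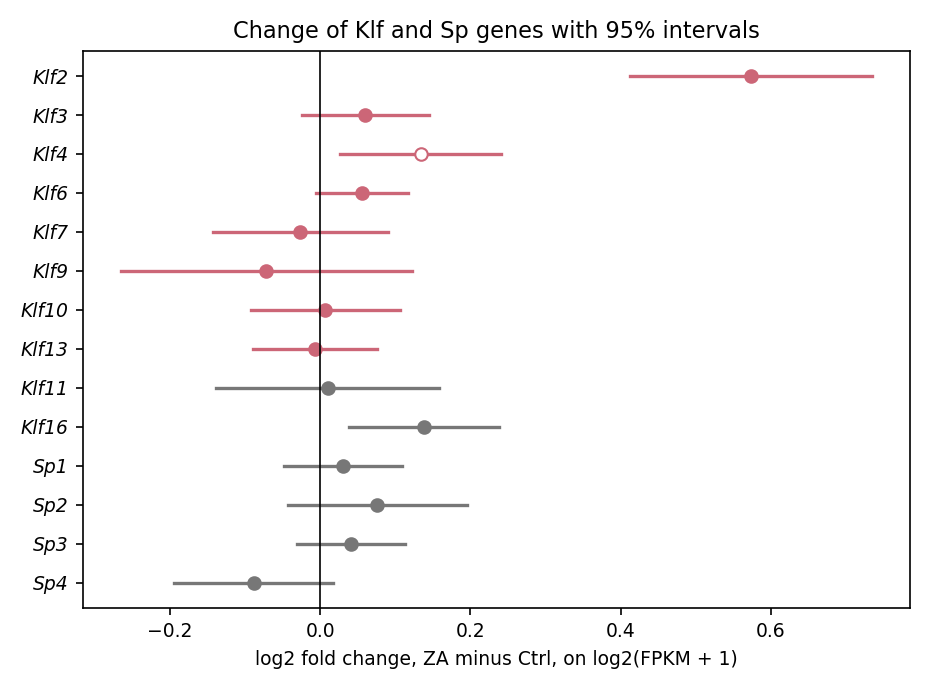
Difference of ZA minus Ctrl on the log2(FPKM + 1) scale for the 8 members (red, Klf4 open because it was under the minimum level) and for the other Klf and Sp genes tested (grey), with 95% intervals as lines. The interval of Klf2, 0.41 to 0.73, lies apart from those of the others, while those of Klf4 and Klf16 also lie above 0. Because Klf2 was chosen on this comparison, nothing is read from its place.

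Several gene lists that touch the members were examined in the same comparison, with the median log2 difference of 0.01 over all genes as the background. The MEK5-ERK5-MEF2 list, with the CCM complex and the class IIa histone deacetylases that restrain MEF2, had 18 genes, 13 of them tested. Of these 6 were higher and 7 lower by mean, limma called 0, with 0 also at an unadjusted p under 0.05, voom called 0, and the median was -0.0029. Mapk7, which encodes ERK5, had an FPKM of 16.8, 17 and 17.1 in Ctrl against 17.1, 16.2 and 15.8 in ZA. The groups overlapped, with a log2 difference of -0.05 (SE 0.0346, adjusted p = 0.617). Mef2a, one of the MEF2 factors, was at 18.7 ± 0.561 and 19.6 ± 0.325 (adjusted p = 0.469), and the CCM gene Krit1 at 3.98 ± 0.281 and 4.27 ± 0.119 (adjusted p = 0.535).

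The 16 co-repressors, co-activators and ubiquitin ligases that bind Kruppel-like factors were all tested, 10 higher and 6 lower by mean with a median of 0.01. Limma called 0, with 2 higher and 0 lower at an unadjusted p under 0.05, and voom called 0. Kat2b, the acetyltransferase PCAF, was at 7.34, 7.33 and 6.99 in Ctrl and at 7.78, 7.78 and 7.89 in ZA, without overlap (log2 difference 0.10, adjusted p = 0.293). Wwp1, a ligase that marks KLF2 for degradation, was at 71.3 ± 3.14 and 75.4 ± 0.837 with overlap (adjusted p = 0.37). Fhl3, a LIM protein that binds KLF3, was at 25.9 ± 0.683 and 27.6 ± 1.47 (adjusted p = 0.423).

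Of 12 genes known as KLF2 targets in endothelium or lymphocytes, 7 were tested. By mean 4 were higher and 3 lower, with a median of 0.06, and limma called 0 in either direction, with 1 higher and 1 lower at an unadjusted p under 0.05. Cdkn1a, the cell cycle inhibitor p21 that KLF2 is known to induce, had an FPKM of 19.5, 19.9 and 19.8 in Ctrl against 23.7, 22.6 and 21.8 in ZA. The groups lay apart, with a log2 difference of 0.19 (SE 0.0341, adjusted p = 0.0758). Vcam1, an adhesion molecule that KLF2 is known to repress, was at 6.62, 5.59 and 5.24 in Ctrl and at 4.19, 4.49 and 4.35 in ZA. All ZA values were below Ctrl, with a log2 difference of -0.35 (SE 0.0712, adjusted p = 0.103). With voom on the recovered fragments both passed, Cdkn1a at an adjusted p of 0.0371 and Vcam1 at 0.0337. S1pr1, the sphingosine phosphate receptor that KLF2 induces in T cells, was below Ctrl in every ZA library, with 22.8, 23.1 and 23.1 in Ctrl against 22.4, 22.3 and 20.2 in ZA (log2 difference -0.09, adjusted p = 0.442).

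Endothelial cells express Klf2 strongly, and the values of endothelial markers are therefore given beside it. Cdh5, the endothelial cadherin, had an FPKM of 0.993, 0.667 and 0.451 in Ctrl against 0.439, 0.244 and 0.270 in ZA. Tie1, an endothelial receptor, had 0.538, 0.416 and 0.327 in Ctrl against 0.175, 0.198 and 0.165 in ZA. These and Emcn (0.677 ± 0.23 and 0.320 ± 0.0521), 3 of the 5 endothelial markers, were lower in every ZA library than in any Ctrl library, on the side of Vcam1. Kdr, the most abundant of the 5, was on the side of Klf2, with 3.61, 3.54 and 3.57 in Ctrl against 3.65, 3.67 and 3.96 in ZA (log2 difference 0.06, adjusted p = 0.621), and Cldn5 overlapped. Their part in the Klf2 and Vcam1 values was not tested.

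The IL-4 and STAT6 genes tied to KLF4 in macrophages comprised 8 genes, of which 6 were tested. By mean 4 were higher and 2 lower with a median of 0.01, limma called 0, with 0 higher and 1 lower at an unadjusted p under 0.05, and voom called 0. Pparg, a nuclear receptor of alternative activation, was at 28.2, 27.6 and 26.1 in Ctrl and at 25.2, 25.4 and 25.6 in ZA. It lay below Ctrl in each ZA library (log2 difference -0.10, SE 0.033, adjusted p = 0.284). Stat6 was at 71.3 ± 0.694 and 73.3 ± 1.31 (adjusted p = 0.542), and Mrc1, the mannose receptor CD206, at 99.3 ± 3.98 and 102.4 ± 2.97 (adjusted p = 0.635).

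Fdps encodes farnesyl diphosphate synthase, the enzyme that ZA inhibits, and was the 1 gene called among the listed genes outside the family. Its FPKM was 30.9, 30.2 and 30.4 in Ctrl against 37.3, 38.2 and 42.8 in ZA. All ZA libraries lay above Ctrl, with a log2 difference of 0.36 (SE 0.0484, adjusted p = 0.0451 by limma and 0.00417 by voom). This call was lost without Ctrl replicate 1, 2 or 3 or ZA replicate 2.

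Klf2, Klf4, Klf6 and Klf10 are often counted among the immediate-early genes, so the other genes of that class were examined. Of 21 listed 16 were tested, and 5 were higher and 11 lower by mean, with a median of -0.05. Limma called 0, with 1 higher and 4 lower at an unadjusted p under 0.05, and voom called 0. Dusp1, a MAP kinase phosphatase, had an FPKM of 7.25, 7.38 and 7.41 in Ctrl against 6.23, 6.70 and 5.58 in ZA. The ZA values lay below Ctrl, with a log2 difference of -0.22 (SE 0.0562, adjusted p = 0.174). Atf3, a stress-induced repressor, was at 202.3 ± 3.83 and 188.1 ± 7.12, likewise without overlap (adjusted p = 0.235). Btg2, an antiproliferative gene, was higher in each ZA library, at 13.98 ± 0.305 and 15.3 ± 0.554 (adjusted p = 0.225).

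The lists around Klf9 and Klf10 held no call by limma or voom. Of 20 glucocorticoid and clock genes 15 were tested, 10 higher and 5 lower by mean with a median of 0.03, and limma called 0, with 3 higher and 1 lower at an unadjusted p under 0.05. Bhlhe41, a clock repressor, was at 30.7 ± 0.617 and 29.3 ± 0.192 (adjusted p = 0.353), the clock output factor Tef at 12.5 ± 0.223 and 13.2 ± 0.126 (adjusted p = 0.363), and the period gene Per3 at 1.40 ± 0.152 and 1.64 ± 0.0272 (adjusted p = 0.384). Of 14 TGF-beta receptors, SMADs and early targets 10 were tested, 6 higher and 4 lower by mean with a median of 0.02, and limma called 0, with 1 higher and 1 lower at an unadjusted p under 0.05. Tgfbr1, the type I receptor, was at 36.5, 35.1 and 33.9 in Ctrl against 32.4 in each ZA library, without overlap (log2 difference -0.11, adjusted p = 0.203). Skil, a SMAD co-repressor, was at 8.13 ± 0.166 and 8.86 ± 0.472 (adjusted p = 0.353), and the type II receptor Tgfbr2 at 66.4 ± 0.551 and 64.8 ± 1.047 (adjusted p = 0.583).

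**Figure D4:**
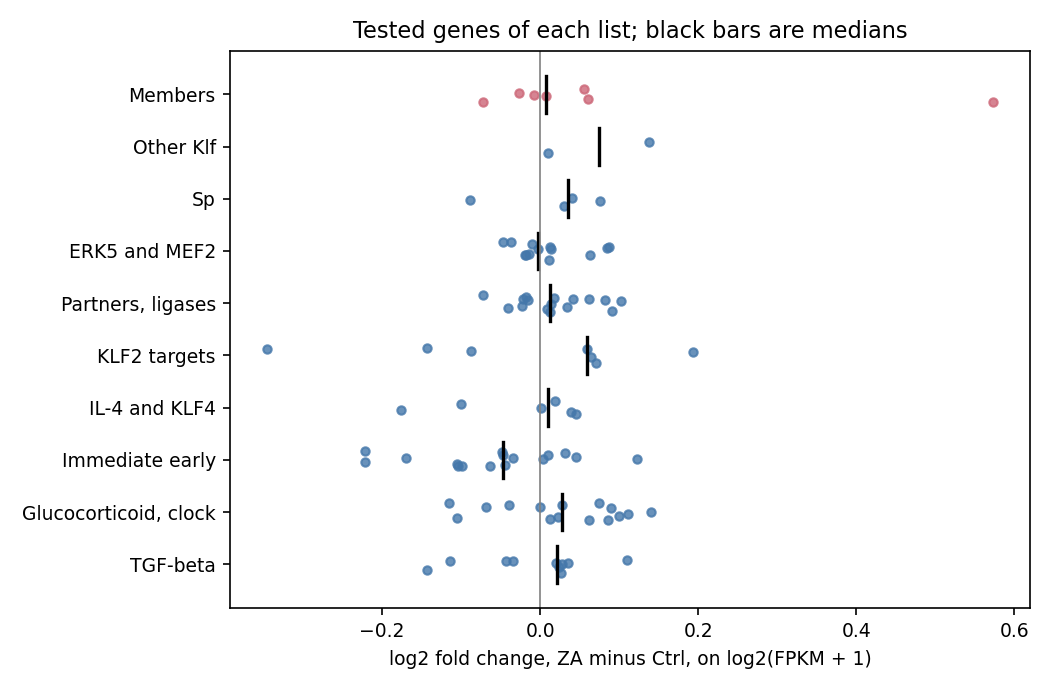
Difference of ZA minus Ctrl on the log2(FPKM + 1) scale for each tested gene of the members and of 9 lists, one point per gene, with the median of each list as a black bar. Klf2 stands at 0.57 at the right, while Vcam1 is farthest to the left at -0.35 and the list medians lie between -0.05 and 0.07.

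The genes whose pattern over the 6 libraries was most like that of Klf2 were ranked by Pearson's r of log2(FPKM + 1) among 9791 genes. This is a description, since all genes share the same libraries and the difference between the groups enters r. The 5 highest were Prcc (0.999), Fdft1 (0.990), Cox7a2l (0.990), Eif3f (0.988) and Klhl8 (0.985). In each of them all ZA libraries were above all Ctrl libraries. Prcc, known from a fusion gene in renal carcinoma, had an FPKM of 15.6, 15.9 and 15.8 in Ctrl against 17.1, 18.1 and 18 in ZA, with the same order of libraries as Klf2. Fdft1, squalene synthase, which uses the product of the enzyme ZA inhibits, had 1.93, 1.99 and 1.98 in Ctrl against 2.29, 2.51 and 2.60 in ZA. None of these 5 genes passed limma's test (adjusted p between 0.077 and 0.257).

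With the group means taken out, the 5 highest were Dph3, Abracl, Uqcrh, Naa38 and Guca1a, at r between 0.991 and 0.995, and the groups of each overlapped. Abracl had an FPKM of 46.0, 49.6 and 47.6 in Ctrl against 41.3, 49.5 and 47.5 in ZA, lowest in replicate 1 in each group as Klf2 was. Among the members, r with Klf2 over the 6 libraries was 0.75 for Klf6, 0.50 for Klf3, -0.03 for Klf13, -0.11 for Klf10, -0.45 for Klf9 and -0.46 for Klf7. With the group means taken out it was 0.13 for Klf6, 0.24 for Klf13 and below 0 for the other tested members.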

How the data were processed

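RNA of 3 Ctrl and 3 ZA BMDM samples was sequenced by the authors as paired 150-base reads, and 1 table of FPKM values was deposited by the authors. The submitters' processing notes name build mm9. The aligner and counter are not given in the sources used here. Values run together in all but 11 of 35434 rows. They were separated by number format and by whole fragments (margin of 3 powers of 10, lengths of 20 to 250000 bases). This restored 35407 rows, holding 99.5% of the fragments, and left out 27. Of 5000 simulated rows 4995 were restored exactly and 0 wrongly.

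log2(FPKM + 1) was compared with limma 3.58.1 in R 4.3.3 (eBayes with a trend, two-sided, Benjamini-Hochberg over 9792 genes whose mean FPKM was 1 or more). On simulated data 97% of 200 genes changed 2-fold were called, with 10 unchanged genes called. Changes under 2-fold, such as those of all members, were not simulated, so the share of them that would be called is not known. Members and lists were chosen with earlier results of these data known. The genes named are the members, the tested Klf and Sp genes, the called genes of each list and the 3 with the largest absolute statistic, and the 5 most like Klf2 by each measure. Some genes under this rule, and 1 list, are not reported here. Markers and Klf genes of low level are named in addition. Alternatives were a pseudocount of 0.1, no or a higher minimum, centring, quantile normalization, no trend, the replicate block and leaving out each library. Voom on recovered fragments, and Klf4 fits without a minimum, were added after seeing the data. Promoters are RefSeq windows of GRCm38.p6, matched by symbol for 7 of 8 members. Python 3.11.15 was used with numba 0.67.0, pandas 2.3.3, NumPy 2.4.6 and Matplotlib 3.10.9.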

Additional observations from a re-analysis of the deposited data

How the results depend on the processing

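Of all genes, 20 were called higher and 16 lower. Without a minimum level the counts were 1 and 0, without a trend 0 and 1, centred on the median 10 and 18, with quantile normalization 10 and 11, and with voom 72 and 61. Leaving out 1 library gave 0 to 14 higher and 0 to 11 lower. Centring moved the median of all genes by -0.0131. Klf2 was not called (0 members) without a minimum or without a trend, and leaving out 1 library gave 0 to 1 member. Fdps, the 1 list gene called, was likewise lost (0 genes) without a minimum or a trend, leaving out 1 library gave 0 to 1, and voom gave 3 higher and 1 lower. The cause of these changes was not tested. With the replicate block 41 genes were higher and 37 lower, 32 of the 36 calls were shared, and Klf2 and Fdps stayed called. The labels do not say that numbers pair the libraries, and same-numbered libraries deviated together at r = 0.284, 0.0395 and 0.28. Klf4's log2 difference without a minimum was 0.25 with a pseudocount of 0.1. Klf4 rests on 242 to 328 fragments per library, the fewest of the members.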
